A study of Mus musculus with 4 samples.

Results

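Trimethylation of lysine 20 on histone H4 (H4K20me3) was enriched at 9463 regions of the genome of mouse embryonic stem cells, and 1323 of them (14.0%) carried the mark while REST and Ring1b reads both stayed under 2 times the genome mean. These 1323 are called below-limit regions here, a name that refers only to this limit on REST and Ring1b. They were selected on measured values: a below-limit region overlapped no region called in the REST, Ring1b or MCAF1 library, and its REST and Ring1b read densities were each under 2 times the genome mean. The cells were V6.5 embryonic stem cells of C57BL/6-129 strain, first grown on irradiated mouse embryonic fibroblasts and then kept off these feeders, for 1 passage before the REST precipitation and for 2 before the Ring1b, MCAF1 and H4K20me3 ones. The labels give no mutation or treatment for any library. The antibodies came from Abcam (H4K20me3), Bethyl (MCAF1) and Upstate (REST), and the labels name no source for the Ring1b antibody. Each antibody was represented by 1 chromatin immunoprecipitation library, so antibody and library cannot be told apart, and no difference between antibodies has a replicate check. No input or control precipitation was among the libraries used. Enrichment and density here are therefore relative to each library's own mean, not to a control.

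H4K20me3 is a mark of constitutive heterochromatin, laid down by the SUV420H enzymes, which bind heterochromatin protein HP1 on chromatin already trimethylated at lysine 9 of histone H3. In embryonic stem cells it is known from pericentromeric satellites, telomeres and endogenous retroviruses. MCAF1, also named ATF7IP, is a partner of SETDB1, the histone H3 lysine 9 methyltransferase that silences endogenous retroviruses in these cells. REST binds DNA directly and keeps neuronal genes silent outside neurons. Ring1b carries the ubiquitin ligase activity of a Polycomb complex, which marks histone H2A at silent developmental genes.

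The libraries held between 3083311 (Ring1b) and 11023569 (MCAF1) distinct nuclear read positions from reads with 1 reported genome location, and 7782972 for H4K20me3. The genome mean was 1.36 REST, 1.34 Ring1b, 4.79 MCAF1 and 3.38 H4K20me3 reads per kb of sequence covered by any library. Intervals are exact 95% intervals and cover counting error only. Amplified reads are not independent molecules, and neighbouring regions are not independent observations. Positions are in the mm8 assembly; genes, exons and repeats at these positions, and their sequences, were not analysed here.

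A region was called where a 1 kb window held at least 5 times its background with a Poisson probability of at most 1e-09. Background was the larger of the genome mean and the mean of the surrounding 1 Mb, and overlapping windows were joined. Of 4598722 windows with a read, 0.396% were called for H4K20me3, 0.625% for Ring1b, 0.100% for REST and 0.0726% for MCAF1. Of the 9463 H4K20me3 regions, 5490 (58.0%) overlapped a region of another library: 5060 overlapped Ring1b, 996 MCAF1 and 748 REST, some of them more than 1. Of the 3973 that overlapped none, 1879 reached 2 times the genome mean in both REST and Ring1b, 422 in REST alone and 349 in Ring1b alone. The remaining 1323 were the below-limit regions.

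REST lay slightly under the genome mean in these regions and Ring1b further under it, and only some regions were without their reads. Summed over the 1323 regions, REST reads were at 0.916 times the genome mean (0.880 to 0.954). Ring1b reads were at 0.754 times (0.720 to 0.788). The selection set the upper end of both values. The median region had 0.735 times the mean in REST and 0.746 times in Ring1b. No REST read fell in 257 regions (19.4%) and no Ring1b read in 376 (28.4%). These are small numbers of reads: at the genome mean a region of 1500 bp holds 2.04 REST and 2.01 Ring1b reads, so 4 Ring1b reads (1.99 times) kept a region of that width and 1 read more removed it.

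The limit of 2 times cut through a continuous range. There were 52 below-limit regions at the highest value that passed, 1.99 times, and 151 had REST or Ring1b at 1.5 times or more. Just inside were chr1:6003001-6004500, with 0 REST and 4 Ring1b reads, chr1:10862001-10863500, with 3 and 4, and chr1:11280001-11281500, with 1 and 4. Just outside were chr15:100094001-100096500, with 7 REST and 5 Ring1b reads, chr4:149024501-149027000, also with 7 and 5, and chr5:20225501-20228000, with 7 and 4. In these last 3 REST stood at 2.06 times the mean. Counted with these 3, 320 of the regions left out lay between 2 and 2.5 times.

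Reads that align to 2 places in the genome are counted apart here as 2-location reads. Each of them is counted at both places, so its fragment may come from the other place. In below-limit regions they made up 20.9% of REST positions (19.4% to 22.4%) against 12.5% over the genome, and 19.3% of Ring1b positions (17.8% to 21.0%) against 10.8%. They made up 10.1% of MCAF1 positions against 6.26%, and 7.04% of H4K20me3 positions against 6.72%. The selection limited REST and Ring1b reads with 1 location and left 2-location reads free, so higher shares for these libraries follow in part from it. In the regions without another call where REST or Ring1b reached 2 times, chosen the other way, the shares were 7.11% for REST and 6.75% for Ring1b. REST and Ring1b reads were aligned with a seed of 26 bases and MCAF1 and H4K20me3 reads with 36, so seed length moves with the libraries that are low here; its part in the low REST and Ring1b density was not tested. With both kinds of read counted together, REST density was 1.02 times the mean (0.987 to 1.06) and Ring1b density 0.840 times (0.806 to 0.874). Chosen on these joint densities the class would hold 1292 regions, 1214 of them among the 1323.

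The below-limit regions were narrow and of moderate height. Their median width was 1500 bp, with 581 regions at 1000 bp, 555 at 1500 bp and 33 of 3000 bp or wider. The median fold of the highest window over background was 6.73, with quartiles at 5.91 and 8.14. A window of average background needed 20 reads, or 5.91-fold, to be called. Heights thus gathered close to the calling limit, and the same held for all H4K20me3 regions, whose median was 6.80.

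The highest below-limit regions rose well above that limit. The first was chr11:62321501-62327000, 5500 bp wide, whose highest window held 112 H4K20me3 reads, a fold of 23.4 over background (19.3 to 28.1). Over its whole width it had 283 H4K20me3 reads (15.2 times the genome mean), 100 MCAF1 reads (3.79 times), 13 REST reads (1.74 times) and 10 Ring1b reads (1.36 times). MCAF1 was thus raised there without reaching a call.

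Next came chr4:63063501-63067000, also with 112 reads in a single window, a fold of 21.2 (17.4 to 25.5). It held 191 H4K20me3, 33 MCAF1 (1.97 times), 8 REST and 5 Ring1b reads. Next in height, chr4:98340001-98342000, reached 18.0-fold (14.1 to 22.5) with 82 H4K20me3 reads against 26 MCAF1, 2 REST and 1 Ring1b reads. MCAF1 density was lower in both than in the chromosome 11 region.

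The remaining 7 of the 10 highest had folds between 16 and 17.5, and differences of this size among them are within their counting intervals. They were chr13:114687001-114690000, chr14:50975501-50977000, chr3:25342001-25343500, chr1:17508001-17510000, chr16:32407001-32410000, chr6:124917501-124920500 and chr1:5159501-5161500. MCAF1 density ranged among the 10 from 0.695 times the genome mean (5 reads) on chromosome 3 to 5.15 times (74 reads) on chromosome 6. The chromosome 1 region at 5159501 had 67 H4K20me3 reads, 24 MCAF1 reads, 2 Ring1b reads and 0 REST reads, which allows a REST density of up to 1.10 times the mean.

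The 3 widest below-limit regions ran over 6000 to 10000 bp. The widest, chr5:105955001-105965000, covered 10000 bp with 419 H4K20me3 reads (12.4 times the genome mean), 151 MCAF1 (3.15 times), 23 REST (1.69 times) and 18 Ring1b reads (1.34 times). The next, chr4:155012001-155019500, had 517 H4K20me3 reads (20.4 times) and a fold of 8.69 over a local background of 10.4 reads per window. REST had 20 reads there (1.96 times, 1.2 to 3.03) and Ring1b 16 (1.59 times). The other, chr8:80342001-80348000, had 244 H4K20me3 reads (12 times), 81 MCAF1, 7 REST and 5 Ring1b reads. REST thus lay above the genome mean in the chromosome 4 region and in the chromosome 5 one, where its interval was 1.07 to 2.54. Of the 3, only the chromosome 8 region had REST and Ring1b under the mean.

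When the pooled reads of the other 3 libraries, scaled to the same mean, were added as a further background, 897 below-limit regions (67.8%, 65.2% to 70.3%) still held a called window, among them all 10 of the highest. In that comparison 0.0445% of covered windows were called, and 12.9% of all H4K20me3 regions held such a window. Since REST, Ring1b and MCAF1 were kept low by the selection, the larger share among below-limit regions follows from it and is a description only.

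MCAF1 reads were denser in below-limit regions than over the genome, although no MCAF1 region overlapped them. Summed over the 1323 regions MCAF1 was at 1.94 times the mean (1.91 to 1.96), and the median region was at 1.67 times, with quartiles at 1.25 and 2.5. MCAF1 lay under the genome mean in 234 regions (17.7%), at 1 to 2 times in 586 (44.3%) and at 2 times or more in 503 (38.0%). At the genome mean a region of 1500 bp holds 7.19 MCAF1 reads, so these values rest on more reads than those of REST and Ring1b. The removal of MCAF1 calls limits the value from above: with the 49 regions kept that had an MCAF1 call but met the other limits, it was 2.08 times (2.05 to 2.11).

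The below-limit regions with the most MCAF1 stood near the calling limit in H4K20me3, with folds from 5.38 to 5.48. In chr10:62362001-62363000 MCAF1 had 33 reads (6.88 times the mean) and H4K20me3 27 reads. In chr2:165931001-165932000 MCAF1 had 30 reads (6.26 times) and H4K20me3 46, and in chr17:9764501-9765500 they had 28 (5.84 times) and 24. REST had 2 reads in each of the 3, and Ring1b 1, 0 and 0. All 3 were 1000 bp wide, and none was called against the other libraries.

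MCAF1 density did not climb steadily with H4K20me3 fold over background, but it did rise with H4K20me3 density. The selection had removed regions with an MCAF1 call, so high MCAF1 values were cut off in both comparisons. It also kept REST and Ring1b under 2 times. Split into 3 groups of 441 by H4K20me3 fold, MCAF1 was at 1.95 times the mean (1.90 to 2.01) in the lowest, 1.85 times (1.8 to 1.9) in the middle and 1.99 times (1.94 to 2.03) in the highest. Median width was 1000 bp in the lowest group and 1500 bp in the others. By density in place of fold, the rank correlation across the 1323 regions was 0.353 for H4K20me3 with MCAF1, 0.154 with Ring1b and 0.139 with REST. Among the other pairs it was 0.253 for MCAF1 with Ring1b, 0.214 for MCAF1 with REST and 0.180 for REST with Ring1b. These are descriptions across regions that share their libraries and whose densities rest on few reads; base composition was not analysed here.

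**Figure D1:**
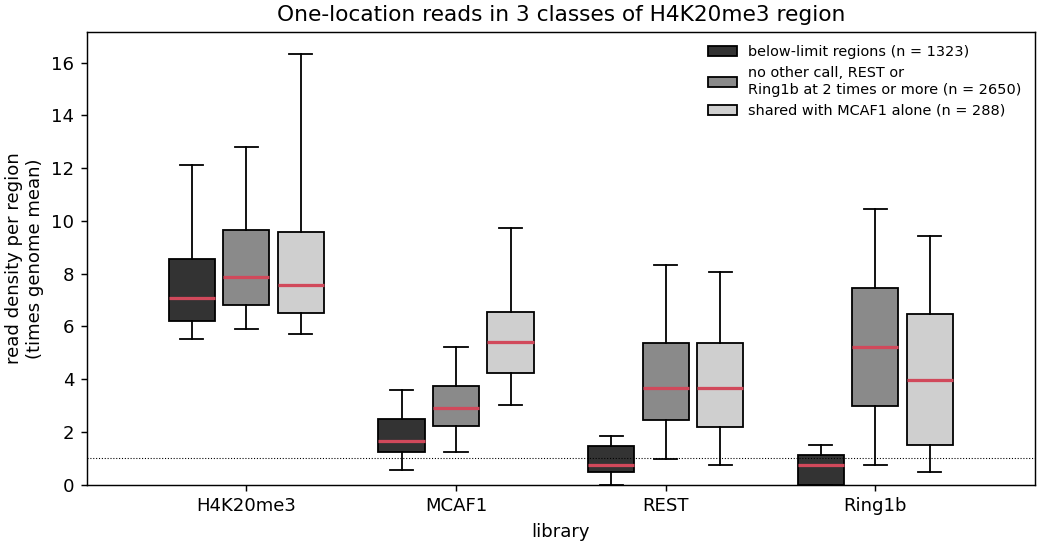
Read density per region in each library, as a multiple of the genome mean (dotted line at 1), for below-limit regions (dark), H4K20me3 regions without another call but with REST or Ring1b at 2 times or more (mid grey) and H4K20me3 regions shared with MCAF1 alone (light). Boxes are quartiles, red lines medians and whiskers the 5th and 95th percentiles over regions; median H4K20me3 density was 7.09, 7.88 and 7.56, while median MCAF1 density was 1.67, 2.92 and 5.42.

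The plot of densities by class sets the below-limit regions beside the H4K20me3 regions most like them. The 2650 regions that also overlapped no other call but reached 2 times in REST or Ring1b had median densities of 7.88 for H4K20me3, 3.67 for REST and 5.22 for Ring1b. MCAF1, whose density was not used to divide these classes, was at 3.08 times the mean (3.05 to 3.10) there, against 1.94 times in below-limit regions. The 288 regions that overlapped MCAF1 but neither REST nor Ring1b calls had no limit on density, and held REST at 3.61 times, between 3.47 and 3.75. Ring1b stood at 3.72 times there, between 3.57 and 3.86. H4K20me3 itself had similar medians in the 3 classes, from 7.09 to 7.88 times the mean. All values come from 1 library per antibody, so no test was made.

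Reads with 2 reported locations did not enter the selection, but came from the same libraries as the reads that did. H4K20me3 2-location reads were at 9.87 times their genome mean (9.56 to 10.2) in below-limit regions, from 3904 positions. MCAF1 2-location reads were at 3.79 times (3.63 to 3.96), REST at 1.83 times (1.69 to 1.98), and Ring1b was lowest at 1.6 times (1.46 to 1.76). The order of the libraries, with H4K20me3 highest and MCAF1 next, was that of the reads with 1 location. The selection had shaped that order, so the match is a description only. The median region had no 2-location read of MCAF1, REST or Ring1b.

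**Figure D2:**
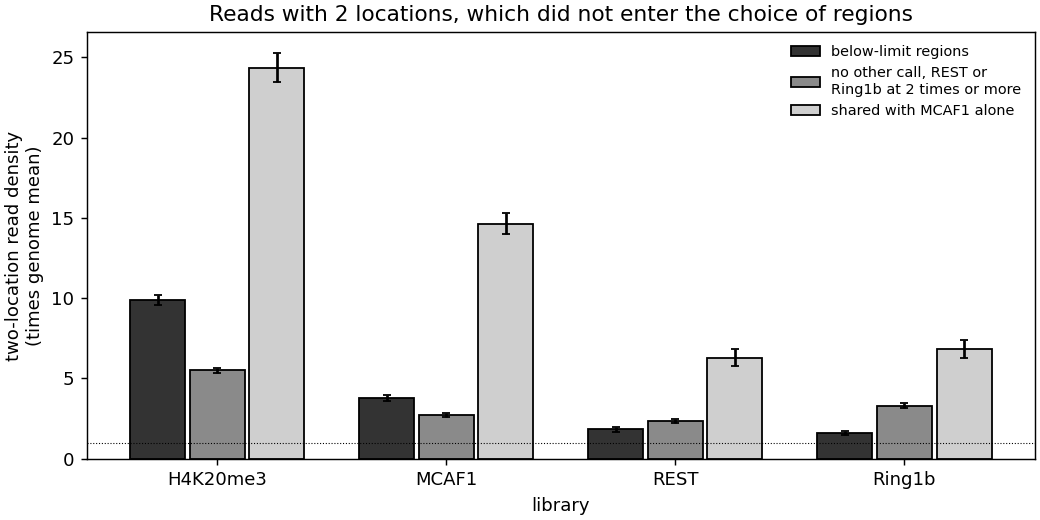
Density of 2-location reads, which played no part in choosing regions, as a multiple of their genome mean in the 3 classes of H4K20me3 region, with exact 95% Poisson intervals. In below-limit regions H4K20me3 stands at 9.87 times and Ring1b at 1.6 times; in regions shared with MCAF1 alone all 4 libraries stand higher.

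These reads were unevenly spread. H4K20me3 2-location reads were found in 714 below-limit regions (54.0%), MCAF1 ones in 586 (44.3%), REST ones in 394 and Ring1b ones in 274. The 14 regions with most held 29.3% of the H4K20me3 2-location reads. Without them the H4K20me3 density was 7.08 times (6.81 to 7.35), under the 8.13 times of H4K20me3 reads with 1 location. The median region had 3.16 times for the former reads and 7.09 times for the latter. With the 14 richest of each library left out, MCAF1 was at 2.83 times (2.68 to 2.98), REST at 1.5 times and Ring1b at 1.21 times.

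The region richest in 2-location reads was chr10:57618501-57620000, with 316 for H4K20me3, 171 for MCAF1, 36 for REST and 51 for Ring1b, against 27, 9, 2 and 2 reads with 1 location. Its REST and Ring1b 2-location reads were 134 and 225 times their genome means, so its low REST and Ring1b density holds only for reads with 1 location. In chr6:149318501-149321000 the 2-location reads were 216, 70, 18 and 5 in the same order, and in chr5:105165001-105166000 they were 81, 42, 9 and 5. At these 3 places all 4 libraries were high in 2-location reads. Such reads are counted at both of their locations, so the signal may belong to the other one.

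In the 2 like classes H4K20me3 2-location reads were at 5.50 times (5.33 to 5.67) where REST or Ring1b reached 2 times, and at 24.4 times (23.5 to 25.3) in regions shared with MCAF1 alone. Their share of regions with any such read was lower than the 54.0% of below-limit regions: 78.8% and 62.2% of regions in these classes had none. The below-limit class thus had H4K20me3 2-location reads in a larger share of its regions, while the class shared with MCAF1 had a higher density of them in a smaller share.

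In the same 3 groups by H4K20me3 fold, 2-location H4K20me3 density among below-limit regions was 6.71 times (6.23 to 7.23) in the lowest, 7.70 times (7.21 to 8.21) in the middle and 13.4 times (12.8 to 13.9) in the highest. For MCAF1 it was 2.95 times (2.67 to 3.26), 2.72 times (2.47 to 2.99) and 5.08 times (4.78 to 5.38). The group with the highest fold held 10 of the 14 regions richest in H4K20me3 2-location reads and 10 of the 14 richest in MCAF1 ones. Without the 14 richest of each library, H4K20me3 was at 5.61, 6.87 and 8.15 times (7.72 to 8.6) from the lowest group to the highest. MCAF1 was then at 2.54 (2.28 to 2.83), 2.49 (2.25 to 2.75) and 3.25 times (3.02 to 3.5). MCAF1 2-location density thus stayed highest in the group with the highest fold, at a smaller distance.

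The mark reached beyond the called regions, while REST and Ring1b stayed close to the genome mean in the bins with reads around them. Bins of 500 bp without a read in any library were left out of these densities. Within 2 kb, 8370 bins were counted for 2646 flanks of below-limit regions. Where REST or Ring1b reached 2 times, 20241 were counted for 5300 flanks. Densities over the full flanks would be lower, more so around below-limit regions. Within 2 kb of the edges H4K20me3 was at 2.68 times the mean (2.66 to 2.71), at 2 to 5 kb 2.13 times, at 5 to 10 kb 1.85 times and at 10 to 20 kb 1.45 times. MCAF1 fell from 1.44 times (1.42 to 1.46) within 2 kb to 1.29 times at 10 to 20 kb. Within 2 kb REST was at 1.09 times, between 1.06 and 1.11, against 1.18 times at 10 to 20 kb. Ring1b was at 0.946 times, between 0.921 and 0.972, against 1.13 times. Around regions where REST or Ring1b reached 2 times, REST and Ring1b within 2 kb were at 1.92 and 2.04 times and MCAF1 at 1.93 times. H4K20me3 there was at 2.42 times within 2 kb and 1.74 times at 10 to 20 kb. Around regions shared with MCAF1 alone it was at 3.57 and 1.91 times. The reach of the mark was thus not particular to below-limit regions.

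Many below-limit regions lay beside stretches of genome in which no library had a read with 1 location. A read-free stretch is here a run of at least 2 kb of 500 bp bins without such a read in any of the 4 libraries. Of the 1323 regions, 419 (31.7%, 29.2% to 34.3%) had a stretch within 2 kb. The share was 6.83% (5.90% to 7.86%) of regions where REST or Ring1b reached 2 times and 3.82% (1.92% to 6.73%) of those shared with MCAF1 alone. Of all 500 bp bins with a read, 6.04% lay as near.

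Reads were sparse around such stretches in general. Within 2 kb of all 47931 stretches, again over bins with a read, REST was at 0.570 times the genome mean and Ring1b at 0.427. MCAF1 was at 0.568 and H4K20me3 at 0.664 times. Of 1500 bp windows with a read in each bin and under the same REST and Ring1b limit, 5.09% lay within 2 kb of a stretch. These windows differ in kind from single bins, and like windows without the limit were not counted. The part of low REST and Ring1b density in the share beside stretches was therefore not tested.

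**Figure D3:**
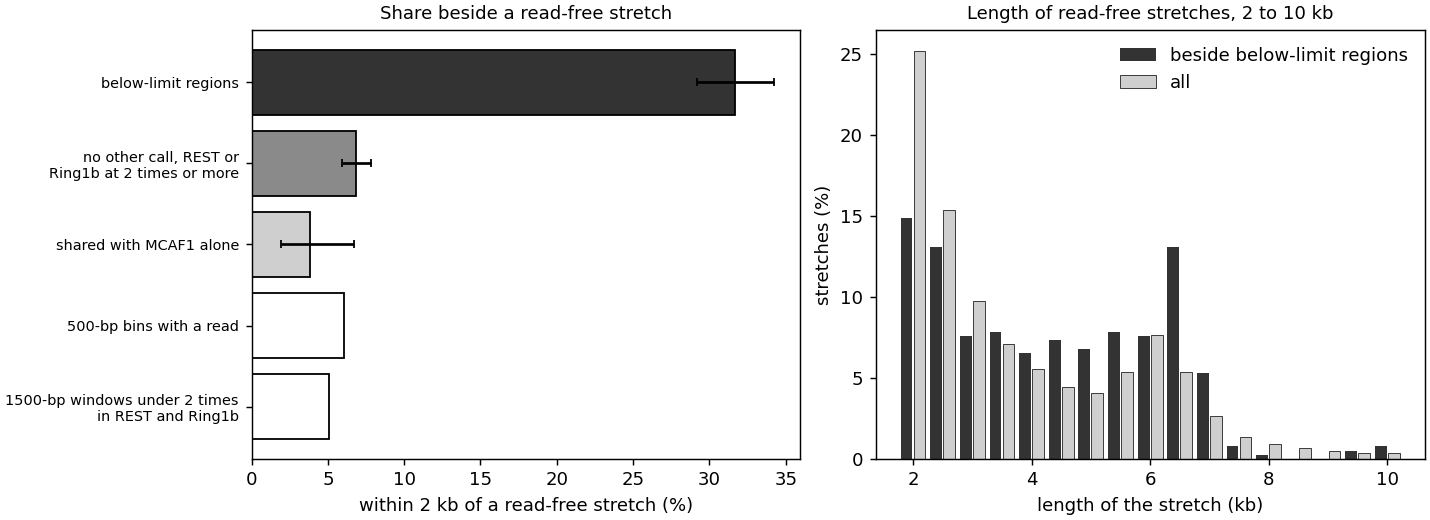
Left, share of each class of H4K20me3 region, of all 500 bp bins with a read and of 1500 bp windows low in REST and Ring1b that lies within 2 kb of a read-free stretch, with exact 95% intervals for the classes (31.7% for below-limit regions). Right, lengths of stretches of 2 to 10 kb beside below-limit regions and in the whole genome; 6.5 kb is the length at which the former exceed the latter most.

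Almost all of these regions had the stretch on a single side: 13 of the 419 had stretches on both. The 419 regions adjoined 397 stretches, and 34 of these had a below-limit region at each end. The stretches were longer than usual, with a median of 4.5 kb against 3 kb for all stretches. Lengths of 6 to 7 kb made up 25.9% of them (103 stretches) against 15.6% of all, and 6.5 kb alone 13.1% against 5.38%. None was longer than 10 kb, where 3.48% of all stretches were.

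H4K20me3 continued on the other side of the stretch. For the 406 regions with a stretch on a single side, H4K20me3 within 2 kb beyond its far end was at 3.70 times the mean (3.62 to 3.78), above the 2.54 times (2.48 to 2.61) on the near region's own outer side. Another H4K20me3 region lay within 2 kb of the far end in 88 cases (21.7%, 17.8% to 26%). Without those 88, far-end H4K20me3 was at 2.15 times (2.08 to 2.22), where REST was at 0.720, Ring1b at 0.512 and MCAF1 at 0.882 times. The outer side, limited in the same way to 382 regions, was at 2.26 times (2.21 to 2.32), so the far end was then no longer the higher of the 2 sides. Both limited values were computed after seeing the data. Bins without a read in any library were left out on both sides, and more of them beyond the far end. Within 2 kb the limited values rest on 988 bins for 318 far ends and 1443 bins for 382 outer sides. Without the limit they rest on 1327 and 1539 bins for 406 each. Densities over the full length would be lower, more so at the far end. A stretch with a below-limit region at each end was counted from both. The far side played no part in the selection of the near region. Beside all stretches H4K20me3 was at 0.664 times, as given above.

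**Figure D4:**
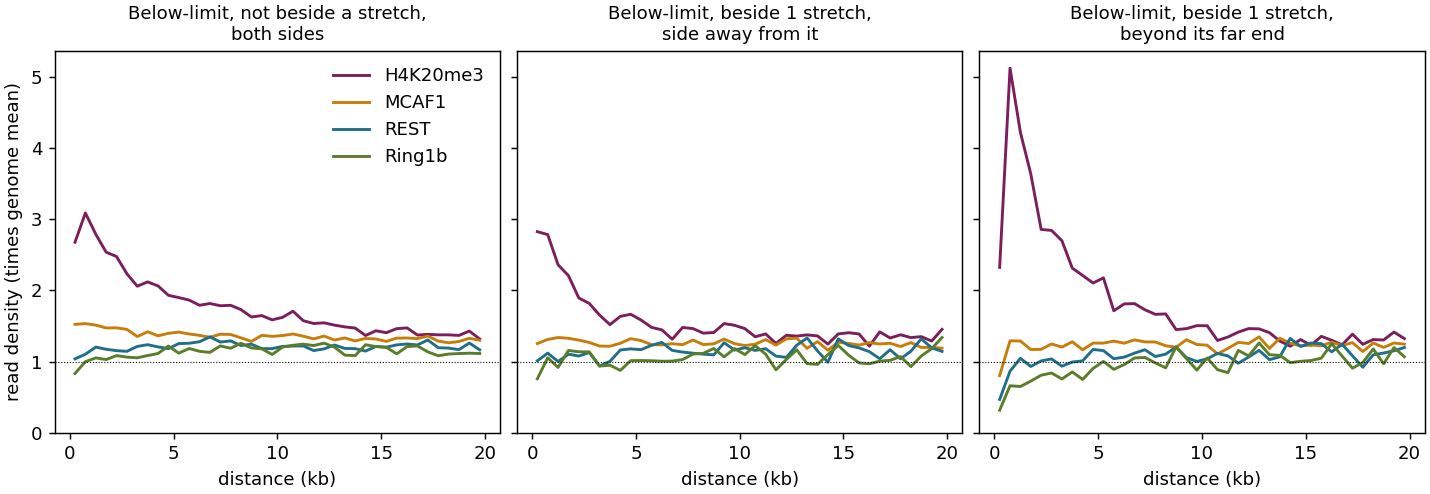
Read density in 500 bp bins with increasing distance from the region edge (left, regions away from stretches; middle, the outer side of regions beside 1 stretch) or from the far end of the read-free stretch (right), as a multiple of the genome mean (dotted line). H4K20me3 rises again beyond the stretch, to 5.12 times in the second bin, while REST and Ring1b stay near or under 1. Without the far ends that have another H4K20me3 region within 2 kb, H4K20me3 in the second bin is at 2.79 times. The first bin can lie partly inside the stretch. Bins without a read in any library are left out.

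Within the stretches themselves 2-location reads were scarce. Stretches beside below-limit regions had H4K20me3 2-location reads at 0.708 times the genome mean (0.625 to 0.8), MCAF1 at 0.465, REST at 0.228 and Ring1b at 0.111 times. Over all stretches the values were 1.30, 1.42, 0.652 and 0.593 times. Reads with more than 2 locations were discarded in the alignment, so sequence present in more copies was not analysed here.

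Regions beside a stretch and the other 904 differed little in the mark. H4K20me3 was at 8.31 times the mean (8.19 to 8.44) beside a stretch and 8.04 times (7.96 to 8.13) elsewhere, with median folds of 6.79 and 6.67. MCAF1 was at 1.65 times (1.6 to 1.7) and 2.06 times (2.03 to 2.10). H4K20me3 2-location reads were at 6.60 times (6.16 to 7.08) and 11.3 times (10.9 to 11.7). Of the 14 regions richest in these reads, 12 lay away from stretches. Without the 14, the H4K20me3 values were 5.97 times (5.54 to 6.42) and 7.57 times (7.25 to 7.91). MCAF1 and H4K20me3 2-location densities were thus higher away from stretches, the latter by less once these regions were left out. Of the 10 highest below-limit regions 2 adjoined a stretch, chr4:63063501-63067000 one of 3 kb and chr13:114687001-114690000 one of 4 kb.

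Most below-limit regions had no other below-limit region within 10 kb, and those with such neighbours had them very near. H4K20me3 regions of other classes were not counted as neighbours. The median gap to the next was 851500 bp. Another below-limit region lay within 10 kb of 307 (23.2%, 21.0% to 25.6%), in 113 pairs and 25 longer rows of up to 5. Of the 169 gaps of up to 10 kb, 38 were under 1 kb and 2 were from 9 to 10 kb. Only overlapping windows were joined, so abutting regions stayed apart, as chr8:80039001-80040000 and chr8:80040001-80041000 did. The nearest neighbours can thus be parts of a single continuous enrichment. Gaps of 4 to 5 kb were found 26 times, of 5 to 6 kb 8 times, of 6 to 7 kb 19 times and of 7 to 8 kb 18 times. No 1 kb class from 10 to 20 kb held more than 4 gaps. In all H4K20me3 regions the share with a neighbour that near was 25.5%, and in the 2 like classes it was 11.5% and 9.03%. Neighbours were counted within each set, so the first of these shares draws on all 9463 regions and is not a like comparison.

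The row with the most regions lay on chromosome 10, where 5 fell between 82797001 and 82815000. Over these 18 kb H4K20me3 was at 11.6 times the mean (10.7 to 12.4), MCAF1 at 3.15 times (2.79 to 3.55), REST at 1.02 and Ring1b at 0.787 times. Its last region, chr10:82813001-82815000, was the highest at 12.6-fold with 95 reads in its highest window. The H4K20me3 background there was high, at 7.56 reads per window. MCAF1 density was raised over the whole row without a call.

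A second row of 4 lay on the same chromosome between 41482501 and 41494000, with H4K20me3 at 9.45 times (8.51 to 10.5) and MCAF1 at 2.99 times (2.55 to 3.49). A row of 4 between 80031001 and 80042500 on chromosome 8 had less MCAF1 than both. H4K20me3 was at 6.45 times (5.39 to 7.65), from 131 reads, and MCAF1 at 0.939 times (0.619 to 1.37), from 27 reads. A read-free stretch of 3.5 kb followed its first region, and one of 2 kb preceded its second. Both stretches were left out of the length used for these densities. Over the full length of this row both densities would be lower, whereas the other rows were taken in full.

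Below-limit regions were spread over all autosomes and the X chromosome. Per covered Mb they were most frequent on chromosome 13 (0.853, interval 0.686 to 1.05), chromosome 10 (0.807, 0.653 to 0.987) and chromosome 14 (0.745, 0.589 to 0.930). They were least frequent among autosomes on chromosome 19 (0.421, 0.267 to 0.632), chromosome 7 (0.464, 0.350 to 0.602) and chromosome 11 (0.485, 0.366 to 0.632). The intervals of chromosomes 13 and 10 lay above those of chromosomes 7, 11 and 19, while those of neighbours in the order overlapped among autosomes. No region lay on the covered 1.36 Mb of chromosome Y, which allows up to 2.21 per Mb.

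**Figure D5:**
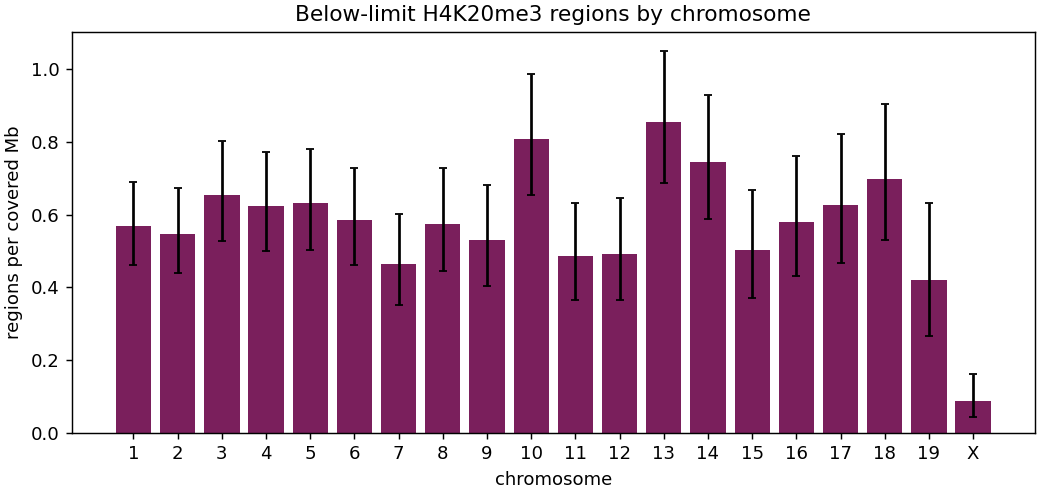
Below-limit H4K20me3 regions per covered Mb by chromosome, with exact 95% Poisson intervals. Chromosomes 13 and 10 stand highest, at 0.853 and 0.807, and the X chromosome lowest, at 0.0877.

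Per covered Mb, the autosomes with the most H4K20me3 regions were not those with the most below-limit ones. Chromosome 11 had 5.59 H4K20me3 regions per Mb, of which 8.69% (6.61% to 11.2%) were below-limit, and chromosome 19 had 4.95 per Mb, of which 8.52% were. On chromosome 10 the share was 19.6% (16.2% to 23.5%), on chromosome 14 19.4% (15.6% to 23.6%) and on chromosome 13 18.9% (15.5% to 22.7%). The X chromosome had 10 below-limit regions, 0.0877 per Mb, and 1.03 H4K20me3 regions of any kind per Mb. The genome mean was the lowest background allowed, so a window on a sparsely read chromosome had to exceed its own surroundings by more. Its part in the low value of the X chromosome was not tested.

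The surroundings of below-limit regions were close to average in read density. The 1 Mb mean around the median region was 1.12 times the genome mean for H4K20me3, 1.13 for MCAF1, 1.05 for REST and 1.01 for Ring1b. Around regions where REST or Ring1b reached 2 times these were 1.35, 1.33, 1.25 and 1.26. Around regions shared with MCAF1 alone, which held more REST and Ring1b, the 1 Mb means were 1.12, 1.10, 1.06 and 1.07, close to those of below-limit regions. Density over the surrounding 1 Mb thus did not follow REST and Ring1b density across these classes.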

How the data were processed

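The deposited files hold signed read positions, a unit of its own kind (other) that is neither counts per feature nor normalised; per the file headers the authors aligned reads with Bowtie to mm8, with up to 2 locations per read, 2 seed mismatches and a seed of 26 bases (REST, Ring1b) or 36 (MCAF1, H4K20me3). Its version was not given in the sources used here. Chromatin fragments averaged 500 bp and were amplified over 18 cycles, per the labels' protocols.

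From these positions 1 read was kept per position and strand and moved 75 bp in its 3′ direction. Windows of 1000 bp every 500 bp were called as stated in the text, with mitochondrial reads left out. A density is reads over the whole region divided by the mean per base of covered windows. For flanks and rows of regions, 500 bp bins without a read in any library were left out of the length. Like classes were set side by side without a test, since each antibody has 1 library. Read-free stretches used positions as reported, and were defined after seeing the data. The members and classes were chosen with earlier results of these data known. Named regions were the 10 highest by fold, the 3 widest, the 3 richest in MCAF1 and in 2-location H4K20me3 reads, the 3 fullest rows and the 3 on either side of the limit. The calling step was tested on simulated reads with an even background and planted regions higher than the median below-limit region. Calls close to the limit, and an uneven background, were not tested in this way. Poisson intervals were used for reads and Clopper-Pearson intervals for shares. The work used scipy 1.17.1 and numpy 2.4.6 under Python 3.11.15, with plots from matplotlib 3.10.9. Base composition and gene overlap, which were planned, were not analysed here.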

Additional observations from a re-analysis of the deposited data

How the results depend on the processing

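The number of below-limit regions depended on the calling limit and on depth. It was 811 at a probability threshold of 1e-12, 336 with a minimum fold of 8, 709 with windows of 2000 bp and 314 with every library thinned to 3083311 reads; it stayed between 1172 and 1926 in the other 7 settings. MCAF1 density, 1.94 times as reported, was 2.10 at 1e-12, 1.8 at 1e-06, 1.89 with all reads kept, 1.84 and 2.14 with REST and Ring1b limits of 1.5 and 3 times, 1.67 as a median and 2.08 with MCAF1 calls kept. H4K20me3 2-location density, 9.87 times, was 11.6 at 1e-12, 9.21 at 1e-06, 10.3 with all reads kept, 10.4 under the limit of 1.5 times and 7.08 without the 1% of regions richest in such reads. MCAF1 2-location density, 3.79 times, was 4.13 at 1e-12 and 2.83 without that 1%. The share called against the other libraries fell from 67.8% to 44.1% at 1e-12. The share with a neighbour within 10 kb, 23.2%, was 20.8% and 30.6% under limits of 1.5 and 3 times, 16.6% for 5 kb and 32.0% for 50 kb. The share beside a read-free stretch, 31.7%, was 44.8% for stretches of at least 1 kb, 18.2% for 4 kb, 24.3% within 1 kb, 41.3% within 5 kb and 34.6% when H4K20me3 reads could lie in the stretch; over the same settings it was 2.08% to 10.7% in the other 2 classes, and in bins with a read it rose from 6.04% to 15.4% for 1 kb and 13.3% within 5 kb. The stretch settings, the joint counting of 1- and 2-location reads, the keeping of MCAF1 calls and the splits without the 14 richest regions were chosen after seeing the data. The causes of these shifts were not tested. No paired analysis was possible because each antibody has 1 library. At this depth REST and Ring1b are known in a typical region only to within a few reads.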

Other observations

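Repeated read positions, which were removed before calling, were slightly more frequent in below-limit regions than over the genome for H4K20me3, at 3.16% (3.01% to 3.31%) against 2.06%, and for MCAF1, at 12.9% (12.4% to 13.4%) against 12.2%. In all H4K20me3 regions they were more frequent, at 5.77% and 20.4%. In the regions without another call where REST or Ring1b reached 2 times they were at 3.39% and 13.1%, close to the below-limit regions.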
